A study of Mus musculus with 12 samples.

Results

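The genes described here flank E2f2 on mouse chromosome 4. They are the non-control array probes that the scanner files place on chromosome 4 between 120 and 150 Mb of the mm9 build, without E2f2 itself, Cdca8, Clspn, Ndufs5 and the Col and Tnfrsf genes. The interval holds 1261 probes, of which 14 were left out by name. The remaining 1247 are 1247 of the 55681 probes on the array and carry 718 distinct names. Of these, 703 probes with 487 names rose well above background on 3 or more of the 4 arrays in some group and could be tested, and 544 could not. A further 1130 tested probes on the rest of chromosome 4 and 26601 off the chromosome served as the background.

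The study measured RNA from whole liver on 12 one-colour Agilent arrays, 1 array per sample and 4 samples per group. Its 3 groups were wild-type mice of mixed 129/Sv and C57BL/6 strain, E2f1-/- mice and E2f2-/- mice. The strain of the knockout mice is not named apart from that of the wild type, and the labels name no Cre line or tissue limit for either knockout. All 12 mice received diethylnitrosamine (DEN), a carcinogen activated in hepatocytes, at 25 mg/kg on postnatal day 14. After weaning they ate a high-fat diet with 60% of its calories from fat for 32 weeks, and they were killed at 9 months after a fast of 4 hours. No group without DEN or on another diet was analysed here. For the E2f1 group 1 label field names vehicle and chow, against the title, description and characteristics of the same samples, which were followed. Nothing in the labels ties a sample to a litter, so p-values measure the spread between these samples.

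E2F1 and E2F2 are transcription factors of the E2F family, which bind the promoters of genes for DNA replication and division and are held in check by the retinoblastoma protein. Genes that lie close to each other on a chromosome are inherited together, so mice bred for an allele of E2f2 also tend to carry the neighbouring stretch of the chromosome from which that allele came. An array probe of 60 bases reports how much labelled RNA binds those bases. A change in the amount of a transcript, in the exons it contains or in the bases under the probe cannot be told apart from 1 probe. In whole liver, fewer cells of a type and less RNA per cell cannot be told apart either.

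The probe for E2f2 at chr4:135750562-135750621 is the reference point for all distances. Values are the log2 processed signal minus the 75th percentile of the array, so 0 is the level of that percentile. E2f2 read 0.48, 1.04, 0.97 and 0.71 in the wild-type livers, -0.20, -1.10, -0.86 and -0.65 in the E2f1-labelled livers and 0.19, 0.72, 0.73 and 0.53 in the E2f2-labelled livers. The wild-type and E2f2-labelled arrays overlapped, with a difference of -0.26 ± 0.21 (SE, n = 4 against 4; limma, Benjamini-Hochberg adjusted p = 0.414). In the E2f1-labelled livers it was lower than in wild type by a log2 difference of -1.5 (adjusted p = 0.00137). The files do not say which part of E2f2 was removed, so a probe outside the deleted part would check nothing. For this reason the group is called the E2f2-labelled livers throughout.

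Several neighbouring probes read far lower or higher in the E2f2-labelled livers than in both other groups. The first 30 of the 60 bases are shown for the probes on which this pattern most depends, 5′ to 3′, as the array files give them. First come the strong differences near E2f2 and at the far end of the interval, each with its position and strand.
Ncmap probe at chr4:134925825-134925884, minus strand: aaagcgggaacactgggattgcaggaccag
Ncmap probe at chr4:134926142-134926201, minus strand: cgacggctagacagcttgatagacagacat
Zfp982 probe at chr4:146887459-146887518, plus strand: caagtgctttccccaaaaatcctatcttag
Fbxo44 probe at chr4:147527012-147527071, minus strand: aggatggaccagggttttgagtggaaggac
Next come pairs of probes to the same gene that gave different answers.
Zfp933 probe at chr4:147197098-147197157, minus strand, set apart: ggggcaggtgtattccttttcatttgaagc
Zfp933 probe at chr4:147200007-147200066, minus strand, not set apart: aatcacatagtctccaaatacacaaaagga
Masp2 probe at chr4:147989478-147989537, plus strand, set apart: gctatattgcatcttcccacataagtcacc
Masp2 probe at chr4:147978456-147978515, plus strand, not set apart: aggctggaatgactgccagctacagcaccc
Last comes a pair of probes with different names and nearly the same bases, where capitals mark what they share.
Stmn1 probe at chr4:134029695-134029754, plus strand: ATCTCACCAGATGCTACTGTACTTGAATGG
Gm11223 probe at chr4:69586229-69586288, minus strand: aATCTCACCAGATGCTACTGTACTTGAATG
No annotation of the mm9 build was used here, so exons and untranslated regions under these probes are not given.

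A probe was counted as set apart in the E2f2-labelled livers when it differed from wild type and from the E2f1-labelled livers in the same direction, each with an adjusted p under 0.05. Of the 703 tested members, 20 were set apart (2.84%), 5 higher and 15 lower. Over all 28442 tested probes 270 were set apart (0.949%), 0.517% higher and 0.432% lower. On the rest of chromosome 4 it was 17 of 1130 (1.5%, 9 higher and 8 lower), and off the chromosome 233 of 26601 (0.876%). Names were left out inside the interval only, and the 17 include a Tnfrsf gene. They also include Gm11223, whose probe shares 53 bases in a row with a member probe of Stmn1. Of the 20, 16 did not pass the test between the E2f1-labelled and wild-type livers, beside 222 of the 270 over all tested probes. As shares of tested probes these were 2.28% of the members and 0.781% of all. By chromosome, chromosome 14 had the highest share with 31 of 1128 probes (2.75%), chromosome 4 came next with 37 of 1841 (2.01%), followed by chromosome 8 at 1.44%.

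A fitted difference of at least 4-fold in both contrasts was seen for 8 of 703 members (1.14%), 7 lower and 1 higher, against 0.323% of all tested probes, 0.442% on the rest of chromosome 4 and 0.297% off it. Between E2f2-labelled and wild-type livers 169 members passed (24.0%), 97 higher and 72 lower, against 21% of all tested probes (13.8% higher and 7.14% lower) and 24.6% on the rest of the chromosome. Between the E2f2- and E2f1-labelled livers 26 members passed (3.70%), 10 higher and 16 lower, against 1.73% of all tested probes (0.949% higher and 0.777% lower) and 2.57% on the rest of the chromosome. Between E2f1-labelled and wild-type livers 114 members passed (16.2%), 69 higher and 45 lower, against 19.3% of all tested probes (12.5% higher and 6.79% lower).

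The typical member differed little from the typical probe on the array. The median log2 difference of the members was 0.15 between E2f2-labelled and wild-type livers, 0.02 between the E2f2- and E2f1-labelled livers and 0.10 between E2f1-labelled and wild-type livers. Over all tested probes these medians were 0.18, 0.03 and 0.13. The median size of the difference between E2f2- and E2f1-labelled livers, without its sign, was 0.20 in the members and 0.19 over all. The same counting rule applied to the other groups gave 6 members set apart in the E2f1-labelled livers (0.853%, against 0.717% of all tested probes) and 80 set apart in wild type (11.4%, against 12.4%).

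**Figure D1:**
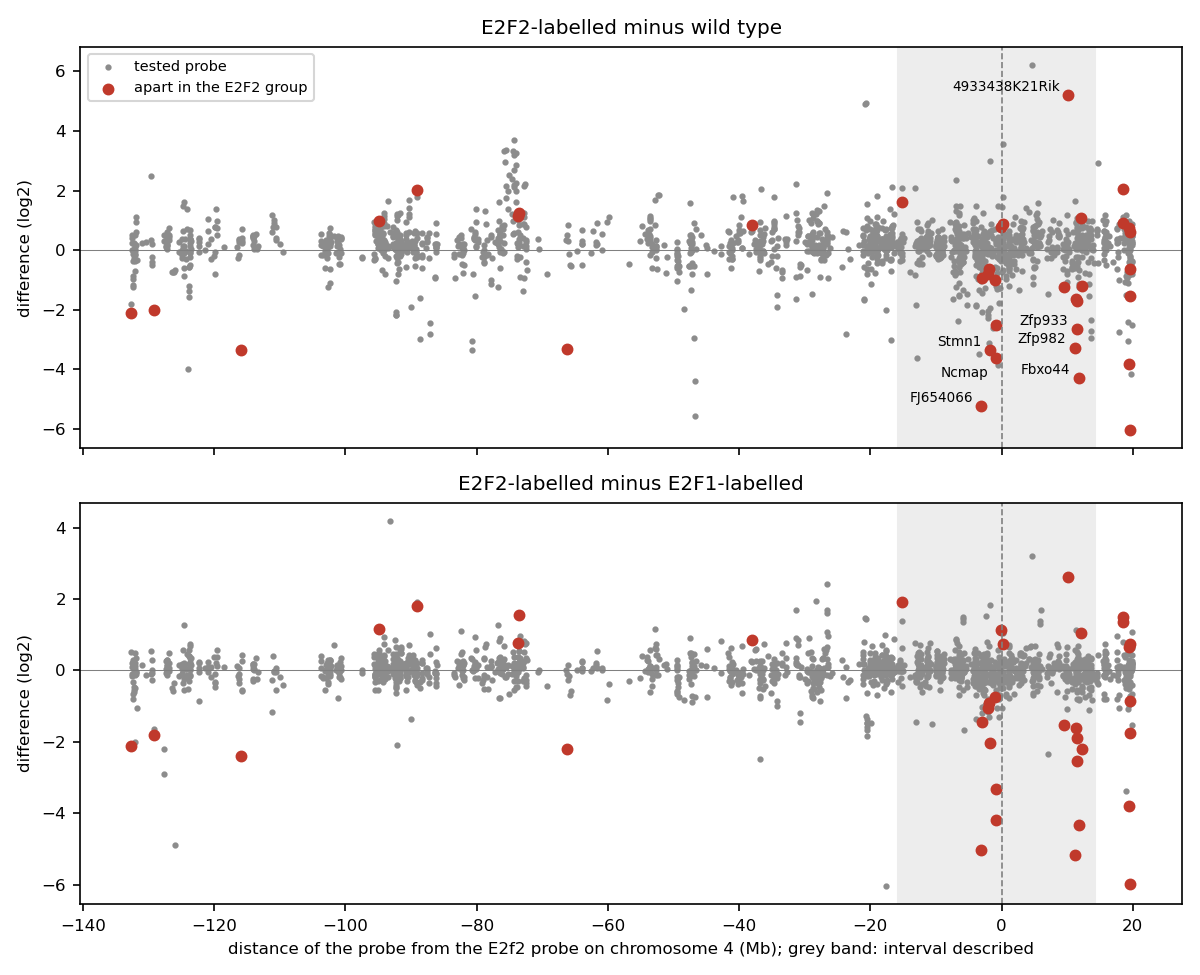
Log2 difference between E2f2-labelled and wild-type livers (upper panel) and between E2f2- and E2f1-labelled livers (lower panel) for each tested probe on chromosome 4, against its distance from the E2f2 probe in Mb. Red points are the probes set apart in the E2f2-labelled livers, 20 of them inside the grey band (120 to 150 Mb) and 17 outside it. Names mark some of the largest differences.

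Distance from E2f2 did not give a steady decline. Within 2 Mb, 7 of 122 tested probes were set apart (5.74%). From 2 to 5 Mb it was 3 of 163 (1.84%), from 5 to 10 Mb 1 of 234 (0.427%), and from 10 to 16 Mb 9 of 184 (4.89%). The sides differed in their counts. Toward lower coordinates 6 of 60 probes within 2 Mb were set apart (10%), and toward higher coordinates 1 of 62 (1.61%). From 10 to 16 Mb the lower side held 1 of 82 (1.22%) and the higher side 8 of 102 (7.84%). The members set apart in the E2f1-labelled livers numbered 0, 1, 2 and 3 in the same 4 bins from near to far.

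Along the map, 19 of the 20 members lay in a pair of stretches, which were drawn after the values were seen and are a description only. Each runs from its first to its last member set apart, with gaps of at most 3 Mb between them, which by itself raises its share. The first ran from -3.1 to 0.16 Mb around E2f2 and held 10 in its 122 tested probes (8.2%), 8 lower and 2 higher. The second ran from 9.46 to 12.24 Mb and held 9 in 76 (11.8%), 7 lower and 2 higher. Outside both, 1 of 505 members was set apart (0.198%). Counted in fixed bins of 5 Mb, the interval gave 1 of 78, 0 of 152, 8 of 146 (5.48%), 2 of 131, 0 of 74 and 9 of 122 (7.38%) from its lower to its upper end. The bin just below the interval gave 0 of 140. Beyond the interval toward higher coordinates the next bins gave 2 of 69, a Tnfrsf gene among them, and 6 of 58 (10.3%). The last bin included Ints11, a subunit of the Integrator complex, 19.51 Mb from E2f2. It averaged 1.19 in wild type, 1.13 in E2f1-labelled and -4.85 in E2f2-labelled livers, where it was not well above background on any array, so its level was at least 28.3-fold higher in wild type.

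**Figure D2:**
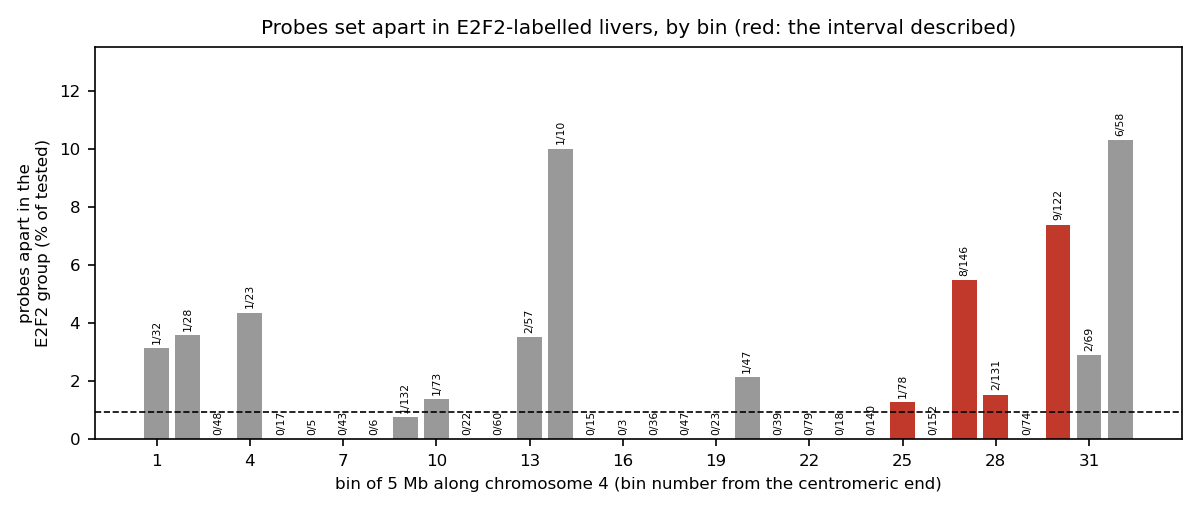
Share of tested probes set apart in the E2f2-labelled livers in each 5 Mb bin of chromosome 4, numbered from the centromeric end, with the counts above each bar. Red bars are the bins of the interval from 120 to 150 Mb, and the dashed line is the 0.949% of all tested probes. Some bins hold few probes, such as the bin with 1 of 10.

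Close to E2f2 toward lower coordinates, Stmn1 was set apart. It encodes stathmin, which takes microtubules apart and is abundant in dividing cells. Its probe 1.72 Mb from E2f2 read 3.78, 3.58, 3.03 and 2.71 in wild-type livers, 2.56, 1.68, 1.84 and 1.74 in E2f1-labelled livers and 0.06, -0.10, -0.11 and -0.13 in E2f2-labelled livers. All 4 E2f2-labelled arrays lay below every other array, and the 4 E2f1-labelled arrays lay between. Against wild type it fell by 3.35 ± 0.25 (log2, SE; limma, adjusted p = 1.06e-05) and against the E2f1-labelled livers it fell by 2.03 (adjusted p = 0.000783). The E2f1-labelled livers were themselves lower than wild type (-1.32, adjusted p = 0.00492). A second Stmn1 probe fell against wild type by 1.93 (adjusted p = 0.000361) and differed from the E2f1-labelled livers by -0.82 (adjusted p = 0.132). The first probe shares a run of 53 of its 60 bases with the probe of Gm11223, at -66.16 Mb from E2f2 on the same chromosome, printed above. That probe read -3.32 against wild type and -2.20 against the E2f1-labelled livers. Near-identical transcripts cannot be told apart by these probes, so the drop on the first Stmn1 probe is uncertain in its source. The second Stmn1 probe, which fell against wild type, shares under 16 bases in a row with any probe of another name. Whether it also binds Gm11223 RNA was not tested.

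Ncmap, a protein of noncompact myelin, lay 0.82 Mb from E2f2 and was the only member set apart on more than 1 of its tested probes, out of 142 genes with at least 2. Its first probe read -0.99, -0.69, 0.93 and 0.71 in wild-type livers, 1.11, 0.34, 0.73 and 0.00 in E2f1-labelled livers and -3.81, -2.97, -2.96 and -4.83 in E2f2-labelled livers. The E2f2-labelled arrays lay below all others. It fell by 3.64 ± 0.50 (adjusted p = 0.000813) against wild type and by 4.19 (adjusted p = 0.000596) against the E2f1-labelled livers. The second probe was not well above background on any of the 4 E2f2-labelled arrays. There the level was at least 2.55-fold higher in wild type and at least 4.41-fold higher in E2f1-labelled livers, with measured means of -2.28, -1.49 and -4.80 in wild-type, E2f1-labelled and E2f2-labelled livers. The bound sets the bright mean against the dim group's mean of, per array, its own reading or the lowest signal well above background, whichever was higher.

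Clic4, an intracellular chloride channel that also acts in vessel formation, lay 0.98 Mb away. It read 3.48, 3.36, 3.24 and 2.96 in wild type, 2.97, 3.19, 3.14 and 2.76 in E2f1-labelled livers and 2.34, 2.33, 2.28 and 2.13 in E2f2-labelled livers. The E2f2-labelled arrays lay below all others, and the probe fell by 0.99 ± 0.15 against wild type (adjusted p = 0.00173) and by 0.74 against the E2f1-labelled livers (adjusted p = 0.029). It stayed set apart in 13 of 22 alternative settings, with an adjusted p of up to 0.124 against the E2f1-labelled livers. Leaving out any 1 of the 4 E2f2-labelled arrays ended the call. Its other probe fell by 0.57 against wild type (adjusted p = 0.0203) and not detectably against the E2f1-labelled livers (-0.22, adjusted p = 0.655). Farther out, smaller falls against wild type were seen for Pdik1l, a protein kinase (-0.64 at -1.92 Mb), Cep85, a centrosomal protein (-0.81 at -2.03 Mb), and Sytl1, a Rab-binding protein of vesicle transport (-0.93 at -2.94 Mb). Against the E2f1-labelled livers these 3 probes read -0.90, -1.04 and -1.44. For Sytl1 the E2f2-labelled arrays (0.46 to 1.22) overlapped the wild-type arrays (0.95 to 2.09).

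The probe named FJ654066 in the files, at -3.1 Mb from E2f2, is annotated there as the control region of an endogenous retrovirus, a repeated element with relatives elsewhere in the genome. It read 7.94, 7.63, 6.53 and 7.27 in wild type, 6.63, 6.21, 7.86 and 7.86 in E2f1-labelled livers and 2.47, 2.46, 1.97 and 1.52 in E2f2-labelled livers. The E2f2-labelled arrays lay far below the rest, and the probe fell by 5.24 ± 0.41 (adjusted p = 1.62e-05) against wild type and fell by 5.03 (adjusted p = 2.35e-05) against the E2f1-labelled livers. Whether the RNA came from this copy cannot be told from the probe. The other tested probe of this kind, FJ654103 on chromosome 1, did not move the same way (-0.09 against wild type, adjusted p = 0.853, and 1.74 against the E2f1-labelled livers, adjusted p = 0.00512).

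A pair of members near E2f2 rose. Id3, which blocks basic helix-loop-helix transcription factors and responds to BMP signals in liver, lies 0.05 Mb from E2f2, the nearest tested gene toward lower coordinates. Its probe read 2.12, 2.62, 2.77 and 2.06 in wild type, 2.45, 2.00, 1.93 and 1.85 in E2f1-labelled livers and 3.27, 2.66, 3.13 and 3.66 in E2f2-labelled livers. The lowest E2f2-labelled array lay below the highest wild-type array. The rise was 0.79 ± 0.24 (adjusted p = 0.0361) against wild type and 1.12 (adjusted p = 0.0338) against the E2f1-labelled livers, and with the slide as a block the adjusted p was 0.0518 and 0.0729. Within the 4 slides, each with 1 array per group, the difference from wild type ran from 0.04 to 1.60. Of a long noncoding RNA at chr4:135896689-135918414 read on the forward strand, 2 of 4 tested probes rose against wild type and 1 of them was set apart. That probe rose by 0.87 ± 0.17 against wild type (adjusted p = 0.00532) and by 0.75 against the E2f1-labelled livers (adjusted p = 0.0492). The other rose by 0.56 against wild type (adjusted p = 0.0312) and read 0.71 against the E2f1-labelled livers (adjusted p = 0.054). The arrays of the probe set apart did not overlap, at -0.69 to -0.44 in E2f2-labelled livers and -1.80 to -1.12 in the others.

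The other genes nearest to E2f2 were not set apart, whatever their level. On the lower side these were Rpl11, a ribosomal protein whose group means were 8.68, 8.69 and 8.67 in wild-type, E2f1-labelled and E2f2-labelled livers, Eloa, an elongin subunit (0.09 against wild type), Pithd1 (-0.01), AK189234 (0.34) and Lypla2, an acyl-protein thioesterase (0.36). None of these 5 passed against wild type, with adjusted p from 0.165 to 0.984. On the higher side Asap3, a regulator of the small GTPase ARF, rose by 1.45 ± 0.20 against wild type (adjusted p = 0.000808). It read 0.92, 0.87, 0.80 and 1.03 in E2f2-labelled, 0.21, 0.64, 0.05 and -0.32 in E2f1-labelled and -0.45, -0.89, -0.51 and -0.32 in wild-type livers. The E2f1-labelled livers lay between, and the difference of 0.76 between the E2f2- and E2f1-labelled livers did not pass (adjusted p = 0.0939). Tcea3, an elongation factor, differed by -0.75 (adjusted p = 0.0822), Zfp46 by -0.10, Hnrnpr, an RNA-binding protein, by 0.01, and 9130020K20Rik by 0.45 (adjusted p = 0.0907). Of the 2 tested reverse-strand probes of the same noncoding RNA interval, 1 rose against wild type, by 3.57 ± 0.67 in the E2f2-labelled livers (adjusted p = 0.00455) and by 3.28 in the E2f1-labelled livers (adjusted p = 0.00696), with a difference of 0.29 between them (adjusted p = 0.934). The other read 0.49 in the E2f2-labelled livers against wild type (adjusted p = 0.0911).

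**Figure D3:**
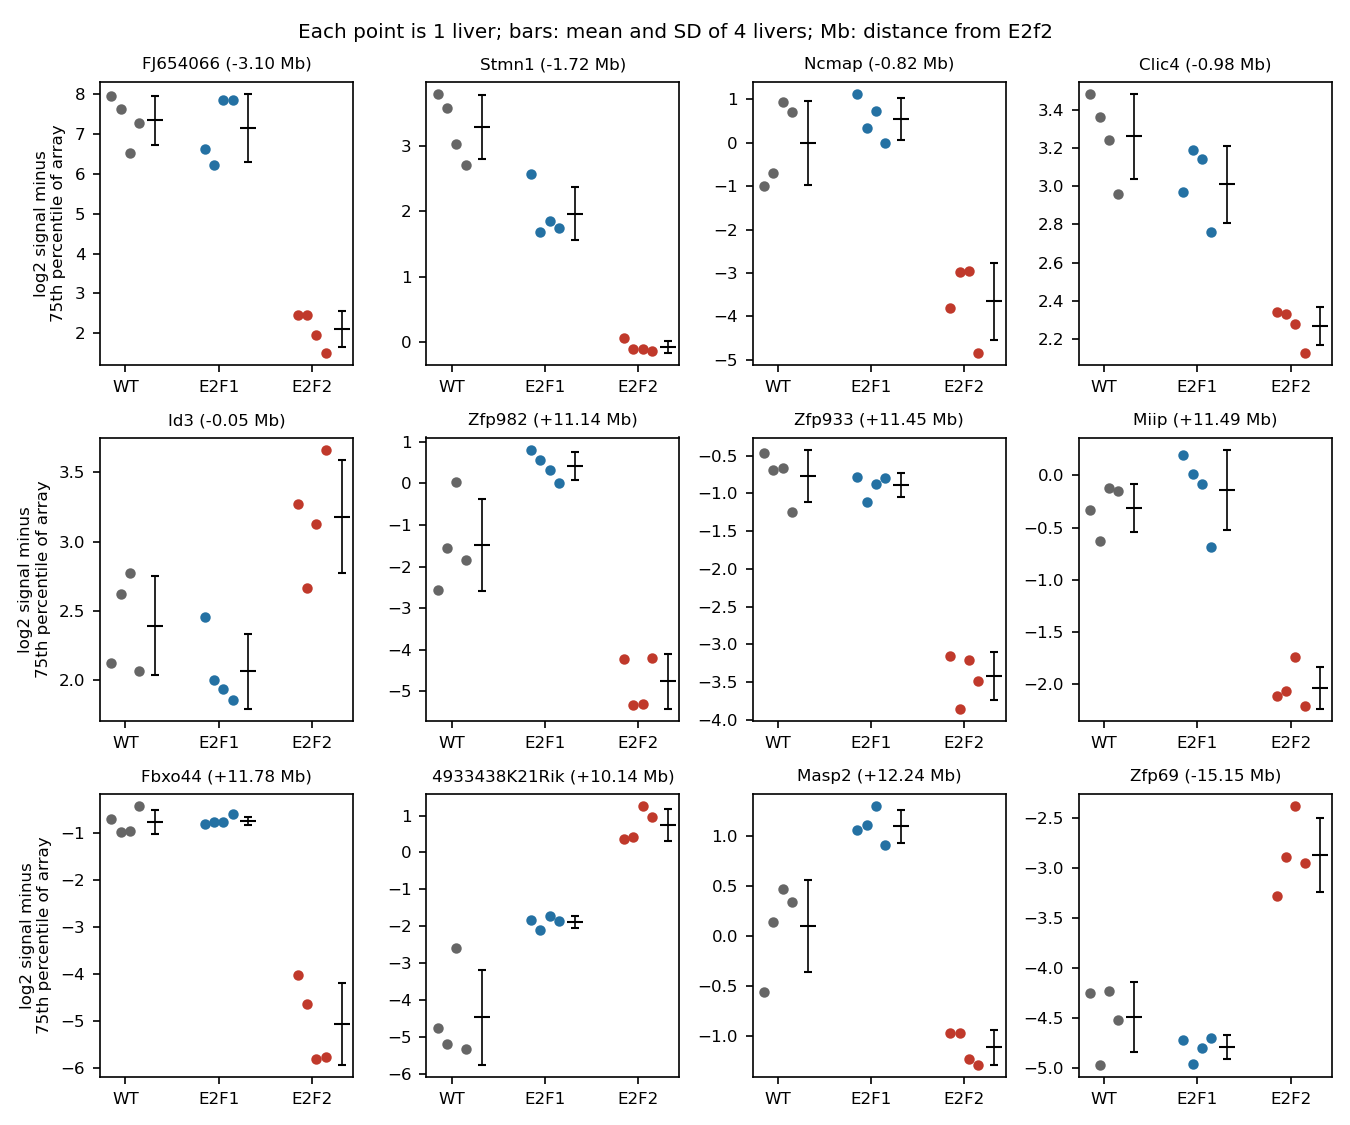
Values of 12 members set apart in the E2f2-labelled livers, on the scale of log2 signal minus the 75th percentile of the array, with 1 point per liver and the mean and SD of each group of 4 beside the points. For 11 of the 12 probes the E2f2-labelled arrays do not overlap the other arrays, and Id3 is the exception.

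The far stretch, 9.46 to 12.24 Mb toward higher coordinates, included Fbxo44, Miip, Masp2 and several zinc finger genes among its members set apart. Fbxo44, an F-box protein that picks substrates for a ubiquitin ligase, read -0.70, -0.98, -0.97 and -0.44 in wild type, -0.82, -0.78, -0.78 and -0.61 in E2f1-labelled livers and -4.03, -4.64, -5.81 and -5.76 in E2f2-labelled livers. It was above background on all arrays of the first 2 groups and on none of the E2f2-labelled arrays. Its level was at least 7.27-fold higher in wild type (adjusted p = 1.61e-05) and at least 7.41-fold higher in E2f1-labelled livers (adjusted p = 1.71e-05). Miip, an inhibitor of cell migration and invasion, read -0.33, -0.63, -0.12 and -0.15 in wild type, 0.20, 0.01, -0.08 and -0.68 in E2f1-labelled livers and -2.11, -2.06, -1.74 and -2.21 in E2f2-labelled livers. It fell by 1.72 ± 0.20 against wild type (adjusted p = 0.00032) and fell by 1.89 against the E2f1-labelled livers (adjusted p = 0.00023), with no overlap.

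Genes named Zfp, for zinc finger proteins, moved in both directions in this stretch. Of 11 tested probes for 7 such genes, 3 fell, 3 rose and 5 did not pass against wild type. The 3 that fell were set apart and none of the 3 that rose was. The rises were Zfp979 (1.65), a probe of Zfp981 (1.19) and the second probe of Zfp933 (0.72). Zfp982 read -2.56, -1.56, 0.04 and -1.85 in wild type, 0.79, 0.55, 0.31 and 0.00 in E2f1-labelled livers and -4.21, -5.32, -5.31 and -4.19 in E2f2-labelled livers, where no array was above background. It was at least 4.44-fold higher in wild type (adjusted p = 0.00111) and at least 16.5-fold higher in E2f1-labelled livers (adjusted p = 6.87e-05). The E2f1-labelled livers were also higher than wild type, by 1.90 (adjusted p = 0.0165), so all 3 groups differed. Zfp933 read -0.46, -0.69, -0.66 and -1.25 in wild type, -0.78, -1.12, -0.87 and -0.79 in E2f1-labelled livers and -3.16, -3.85, -3.21 and -3.48 in E2f2-labelled livers, above background on 2 of the last 4. It fell by 2.66 ± 0.20 against wild type (adjusted p = 1.23e-05) and by 2.53 against the E2f1-labelled livers (adjusted p = 1.94e-05). Zfp984 fell by 1.65 and 1.61 in the same contrasts, without overlap. Gm13212 fell by 1.23 and 1.52, with E2f2-labelled arrays (-2.51 to -1.61) overlapping wild type (-1.71 to 0.14), and with the slide as a block the adjusted p against the E2f1-labelled livers was 0.0878. The Gm13212 probe shares a run of 29 bases with the probe of Zfp995, so related zinc finger transcripts may be read together.

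Among the rises in the far stretch, the noncoding RNA 4933438K21Rik read -4.76, -5.20, -2.59 and -5.33 in wild type, -1.82, -2.10, -1.73 and -1.87 in E2f1-labelled livers and 0.36, 0.41, 1.25 and 0.96 in E2f2-labelled livers. The groups formed 3 steps without overlap. The fitted rise was 5.21 ± 0.49 against wild type (adjusted p = 6.43e-05), where only 1 of 4 arrays was above background, and 2.62 against the E2f1-labelled livers (adjusted p = 0.0145). On the opposite edge of the interval, at -15.15 Mb from E2f2, the zinc finger gene Zfp69 read -3.28, -2.89, -2.38 and -2.95 in E2f2-labelled livers. It was not well above background on any array of the other groups, and was at least 1.69-fold higher than in wild type and at least 1.65-fold higher than in E2f1-labelled livers. Zfp69 passed the filter only through the E2f2-labelled arrays where it was high, so its call among the 5 higher members is no independent support. With normexp background correction it was no longer set apart.

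Masp2 encodes a serine protease that starts the lectin pathway of complement and is made mainly by hepatocytes, and it is also known to give a short product, MAp19. The probe set apart read -0.56, 0.14, 0.47 and 0.34 in wild type, 1.06, 1.10, 1.29 and 0.91 in E2f1-labelled livers and -0.97, -0.97, -1.23 and -1.28 in E2f2-labelled livers. It fell by 1.21 ± 0.21 against wild type (adjusted p = 0.00294) and fell by 2.21 against the E2f1-labelled livers (adjusted p = 9.27e-05). A second Masp2 probe, whose bases are printed above, read 3.90, 4.17, 4.88 and 4.78 in wild type and 4.85, 5.21, 5.52 and 5.70 in E2f2-labelled livers, a rise of 0.88 (adjusted p = 0.0363). Another differed by 0.73 (adjusted p = 0.077). Which product each probe reads was not tested.

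Other genes set apart showed such disagreement too. The 20 probes stand for 19 names. For 10 names no other probe was tested, Ncmap was set apart on both of its tested probes, and 8 had at least 1 further tested probe that was not set apart. In 5 of these 8 a further probe had the opposite sign against wild type, for the noncoding RNA only by a reading of -0.01. In 3 that opposite difference passed the test. Besides Masp2 these were Pdik1l, whose other probe rose by 0.58 (adjusted p = 0.0462), and Zfp933, whose other probe rose by 0.72 (adjusted p = 0.0212). The second Zfp933 probe, printed above, shares a run of 23 bases with the probe of Zfp936. The other Zfp984 probe read 0.93 higher without passing (adjusted p = 0.0545), and the other forward probes of the noncoding RNA differed by -0.01, 0.24 and, passing the test, 0.56. Among all 142 member genes with at least 2 tested probes, both signs passed against wild type in 3, the same Masp2, Pdik1l and Zfp933.

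**Figure D4:**
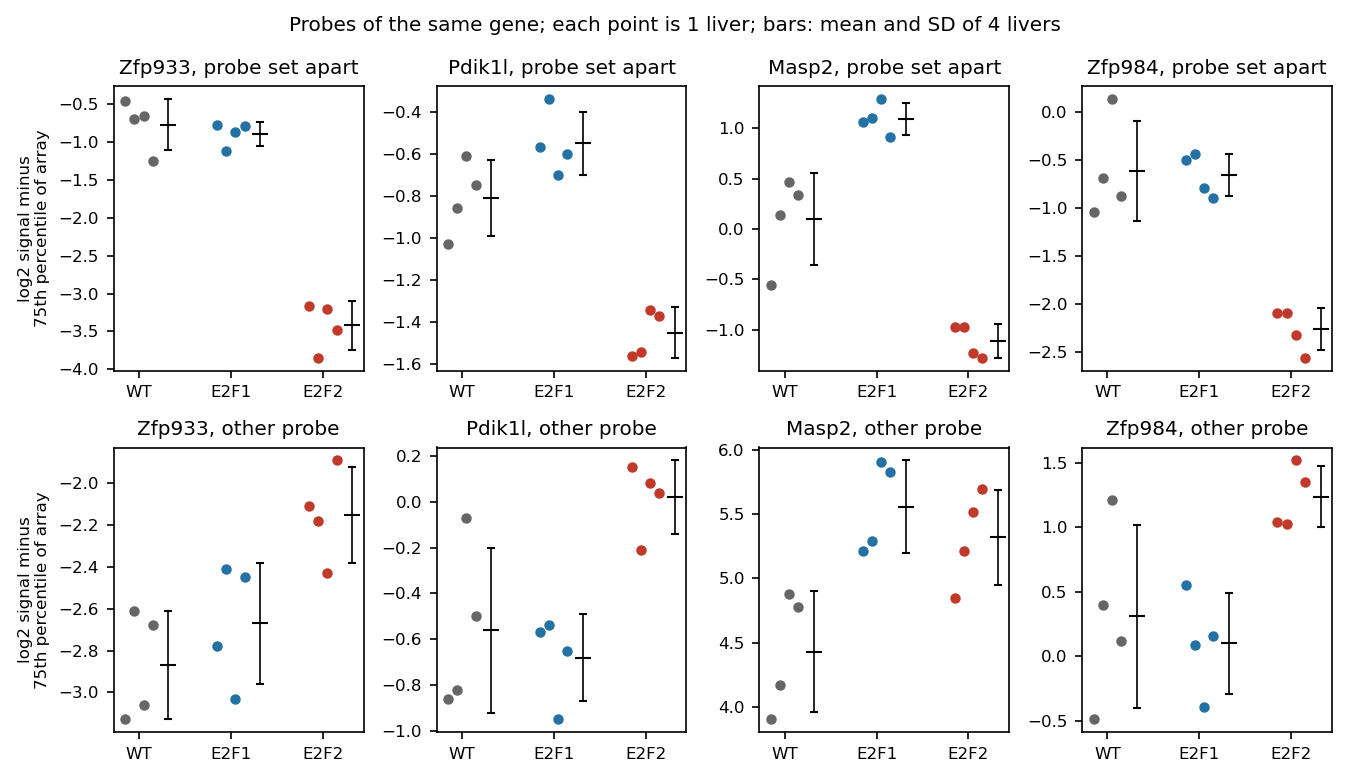
Probes of the same gene compared, with the probe set apart in the upper row and another tested probe below it, for Zfp933, Pdik1l, Masp2 and Zfp984. Points are single livers and bars the mean and SD of 4. In the upper row the E2f2-labelled arrays are the lowest of the 3 groups, and in the lower row their mean lies above that of wild type.

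For comparison, the members set apart in the E2f1-labelled livers included Rps6ka1, a kinase downstream of ERK, which was lower there by a log2 difference of -1.48 against wild type (adjusted p = 0.00138) and read 0.06 in the E2f2-labelled livers against wild type. Tmem51 (-1.13) and Kazn (-1.18), a protein of epithelial cell junctions, were lower there as well. The 2 rises were the same probes of Zfp982 and Masp2 that fell in the E2f2-labelled livers.

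The functions of the interval's genes were described with lists, taking for each gene its brightest tested probe. Of 30 metabolic genes, 13 rose and 5 fell in the E2f2-labelled livers against wild type (median 0.39), and 13 rose and 3 fell in the E2f1-labelled livers (median 0.62). None passed between the E2f2- and E2f1-labelled livers on its brightest probe. The list includes Masp2, counted as a rise by its brightest probe (0.88). The Masp2 probe set apart read -1.21 against wild type and -2.21 against the E2f1-labelled livers. Agmat, which acts on guanidino compounds in mitochondria, rose by 1.57 and Mfn2, which fuses mitochondria, by 1.08. Sdhb, a subunit of succinate dehydrogenase, rose by 0.79, and Atpif1, an inhibitor of the mitochondrial ATP synthase, fell by 0.98. Over all tested probes 13.8% were higher and 7.14% lower than in wild type, with a median of 0.18.

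Of 16 tested genes on a list of leukocyte genes, 6 fell and 0 rose in the E2f2-labelled livers against wild type (median -1). In the E2f1-labelled livers 4 fell and 0 rose, and none passed between the E2f2- and E2f1-labelled livers. The list includes the receptors Ifnlr1 and Il22ra1 (-1.26, adjusted p = 0.0775), which are not specific to leukocytes. Which liver cells express the listed genes was not tested. Cd52, a surface glycoprotein of lymphocytes and other leukocytes, fell by 2.19 (adjusted p = 0.00266). It read 3.70, 4.57, 5.61 and 4.57 in wild type and 3.13, 2.62, 2.19 and 1.73 in E2f2-labelled livers, without overlap. Lck, the T-cell kinase, fell by 1.11. Ifnlr1, the receptor for interferon lambda, fell too (adjusted p = 0.00215), by a fitted 3.84 that rests on 1 of 4 E2f2-labelled arrays above background. Smpdl3b, a membrane phosphodiesterase, was well above background on none of the arrays labelled E2f1 or E2f2, and was at least 3.1-fold higher in wild type than in the E2f2-labelled livers. Markers of leukocytes were measured beside these genes. Of 4 T and NK cell markers 2 fell against wild type, with a summed level of 12.0 to 23.5 times the 75th percentile in wild type, 11.3 to 16 in E2f1-labelled and 10.3 to 16.7 in E2f2-labelled livers. Of 7 markers of Kupffer cells and macrophages 1 rose and 2 fell, with sums of 60.5 to 162 in wild type, 110 to 158 in E2f1-labelled and 73.4 to 161 in E2f2-labelled livers. The 3 neutrophil markers, with 0 called either way, summed to 231 to 379, 175 to 285 and 227 to 300 in the same order. The median difference of E2f2-labelled from wild-type livers was -0.60 for the T and NK cell, -0.63 for the macrophage and -1.20 for the neutrophil markers. For the listed genes of the interval it was -1. Lck, C1qa, C1qb, C1qc and Csf3r are in both the interval's list and the marker lists, so these medians and falls are not independent. The part of leukocyte numbers in the falls was not tested.

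Over all tested probes 13.8% were higher and 7.14% lower than in wild type, as above, with a median of 0.18. Of 29 genes that process RNA and chromatin, 2 rose and 0 fell against wild type on their brightest probes (median 0.12). These were Srsf4, a splicing factor, by 1.01 and Rbbp4, a histone-binding partner of the retinoblastoma protein, by 0.71. Hdac1 did not pass on its brightest probe (-0.39, adjusted p = 0.132), while its other tested probes read -1.52 and -1.56 against wild type. Of 19 signalling genes 3 rose and 2 fell (median 0.18), among them Rcan3, a calcineurin regulator (-1.19), and Id3 and Clic4 were set apart. Pdpn, a marker of lymphatic vessels, did not pass (adjusted p = 0.293) and was well above background on 2 of 4 wild-type arrays and 0 of 4 E2f2-labelled arrays. Of 8 genes of division and DNA repair 2 rose and 3 fell (median -0.32). Stmn1 and Cep85 were set apart. Mad2l2, which acts in translesion synthesis and checkpoint control, fell by 1.24 against wild type, and Rcc1, which loads RAN onto chromatin, rose by 0.96. Neither of the 2 tested genes of the exocrine pancreas in the interval passed.

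Whole-series values that bear on these results were few. The 75th percentile of the processed signal was 119.2 to 238.3 intensity units across the 12 arrays, and 45.9% to 55.5% of probes were well above background. Arrays correlated at r of 0.953 to 0.987 within groups and 0.927 to 0.978 between groups, across probes. All 5 hepatocyte markers were above background on all 12 arrays, with summed levels of 4690 to 6950 in wild type, 5430 to 7970 in E2f1-labelled and 4410 to 7250 in E2f2-labelled livers. Of 5 markers of the exocrine pancreas, Cela3b, Cpa1 and Prss2 did not pass the filter. Every array of a group sat at the same position of its slide, and that position cannot be told apart from the genotype.

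Promoters of the members were searched for the E2F motifs TTTCCCGC, TTTCGCGC, TTTGCCGC and TTTGGCGC on both strands. The window ran from 250 bases before to 50 bases after each start in RefSeq (GRCm38.p6). Among the 27025 genes listed there, 704 held a match (2.6%). Of 487 names among the tested members 298 were found there, and 19 of these held a match (6.38%). The members had passed the filter for signal in liver and the listed genes had not, so these shares are of unlike sets. The share among tested genes elsewhere was not computed. Of the 19 names set apart 15 were found, and 0 held a match, which says only that these letters are not in those windows.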

How the data were processed

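Total RNA of 12 livers was hybridised, 50 ng per sample, to one-colour Agilent arrays. Per the submitters' processing notes the scanner images were read with Agilent Feature Extraction (version 10.7.3.1). The processed signal deposited by the authors is an intensity with background removed, not log-transformed, per the file headers. The deposited series matrix holds log2 values, which correlate at r of 0.998 or more with the log2 scanner signal and have a median of 3.84 on each array. Their making is not described in what was used here, and they were an alternative.

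From these files the processed signal was log2-transformed and centred on each array's 75th percentile, without control and outlier spots, and spots of 1 probe were averaged. Centring makes values relative within an array. Testing required a probe to be well above background on 3 or more arrays in some group of 4, as 28442 probes were. One limma fit (limma 3.58.1, R 4.3.3, data.table in version 1.17.8) held all 12 arrays and no covariate. It had 9 residual and 3.23 prior degrees of freedom. Benjamini-Hochberg adjustment ran over all tested probes, and adjusted p under 0.05 passed. The script was tested on simulated data. The number of arrays limits the precision. Contrasts of the E2f2-labelled livers share arrays and are not independent of each other.

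Of the 1261 probes in the interval 632 kept a current symbol of the same chromosome, 71 were named by accession, 9 by synonym and 549 as in the files. The members and lists were chosen with earlier results of these data known. Named genes are E2f2, the 10 largest rises and falls among members set apart, the 6 tested genes nearest on each side, the 3 largest of each direction set apart in the E2f1-labelled livers and up to 3 per list. The remaining members set apart, the second probes, Zfp979, Zfp981, Sdhb, Atpif1, Lck, Ints11, Gm11223 and FJ654103 were named after their values were seen. Some genes that the rule names, 1 member set apart among them, are counted but not reported here by name. Alternatives were other background corrections, scalings, filters and spot rules, the series matrix, 1 probe per gene, the slide as a block, array weights, other rules for being set apart and each array left out.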

Additional observations from a re-analysis of the deposited data

Results flagged for a closer look

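Of 147 groups of 4 arrays, for 49 probes named in the text, 6 had a highest or lowest array whose gap to the next exceeded Dixon's 95% critical value, and chance gives about 1 in 20 groups. Stmn1 read 0.06 in replicate 1 of the E2f2-labelled livers and -0.13 to -0.10 in the other 3, a small gap in a narrow group. Rps6ka1 read 3.03 in replicate 1 of the E2f1-labelled livers and 2.34 to 2.39 in the others, and Rcc1 read 1.32 there against 2.25 to 2.33. In wild type, replicate 3 read 2.47 for Srsf4 against 1.34 to 1.49, and 1.51 for 9130020K20Rik against 0.90 to 0.97. Hnrnpr read 1.62 in wild-type replicate 4 against 2.11 to 2.18.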

How the results depend on the processing

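Of the 20 members set apart, 7 stayed so in each of the 22 alternatives that gave them a value, namely FJ654066, Stmn1, Ncmap (first probe), Zfp933, Miip, Fbxo44 and Masp2. Id3 kept its status in 7, the forward noncoding RNA in 6, Gm13212 in 9 and Clic4 in 13. With normexp background correction 12 members were set apart, 11 on the rest of the chromosome, and 16 members passed between the E2f2- and E2f1-labelled livers. Median centring left 112 passing against wild type. Without the filter on dim probes, 92 of 1247 members passed for E2f2-labelled and 66 for E2f1-labelled livers against wild type. Within 5 Mb 6 of 469 were then set apart, where the main count was 10 of 285. On the rest of the chromosome 9 of 852 were set apart with probes above background on all 12 arrays. With 1 probe per gene it was 9 of 800, and with array weights 26 of 1130. One contrast against the mean of the other groups gave 60 members (8.53%), 33 within 5 Mb (11.6%) and 75 on the rest of the chromosome (6.64%). The main shares were 2.84%, 3.51% and 1.5%. For the alternatives, shares over all tested probes of the array are not given here. Requiring a 2-fold difference in both contrasts gave 4 within 5 Mb and 10 on the rest. Median centring moved the median of all probes against wild type from 0.18 to 0.11, and quantile normalization to 0.08.

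Each left-out array gave 102 to 183 members passing for E2f2-labelled and 76 to 135 for E2f1-labelled livers against wild type, and 16 to 32 between them. Members set apart ranged from 13 to 25, those within 5 Mb from 6 to 14, and those on the rest of the chromosome from 10 to 21. Without wild-type replicate 2 the first count was 102. Without replicate 4 of the E2f2-labelled livers 16 passed between these groups, 13 members were set apart, 6 within 5 Mb and 10 on the rest. Without replicate 1, 3 or 4 of the E2f1-labelled livers the rest held 11, 10 and 11.

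Replicate numbers matched the slides, and 10 of 12 same-numbered pairs had deviations that correlated above 0.1 (r of 0.04 to 0.40). The main fit nonetheless held no term for the slide, and gave 169, 26 and 114 members passing in the 3 contrasts. With the slide as a replicate block 225 (32%), 35 (4.98%) and 146 (20.8%) of the 703 members passed in the 3 contrasts. Set apart were 22 members (3.13%), 12 of them within 5 Mb (4.21%), and 21 probes on the rest (1.86%). Over the named probes 1021 results kept their side of the threshold, 7 came to pass and 32 ceased to pass, with no change of direction among called values.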
